A study of Drosophila melanogaster with 12 samples.

Results

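The small RNAs bound to Ago3 and to Aub in csulRM50 ovaries of Drosophila melanogaster were compared transposon by transposon. The aim was to find which elements kept different strands in the Ago3 and Aub pools of this mutant of the arginine methyltransferase PRMT5. A transposon was included when it had at least 50 read copies in both csulRM50 libraries, which held for 121 of the 126 consensus transposons counted, with BS4, Bari2, Helitron, P-element and Penelope below that minimum. The whole study sequenced 12 libraries of piRNAs bound to Ago3, Aub or Piwi. The 4 used for most comparisons below were made from whole ovaries of yeast-fed flies aged 2 to 5 d: Ago3 and Aub immunoprecipitates of csulRM50, a strain with a loss-of-function allele of csul, which encodes the PRMT5 of Drosophila, and Ago3 and Aub immunoprecipitates of w1118, whose Aub is wild type and methylated. The same antibodies to the endogenous proteins, the same protocol and the same adaptor without a random barcode were used in both genotypes. csul (FBgn0015925) spans positions 16264652 to 16266959 of 2R in the BDGP6 assembly. AGO3 (FBgn0250816) spans 23554593 to 23689640 of 3L, and aub (FBgn0000146) spans 10997819 to 11001476 of 2L on the reverse strand. Libraries of aubRK and aubWT are used for the spread between libraries and for 1 comparison at the end. These flies lack endogenous Aub (QC42/HN2) and express an HA-tagged aub transgene in the germline through nos-Gal4-VP16, with the N-terminal arginines changed to lysines in aubRK and unchanged in aubWT. The csulRM50 strain is mutant in every cell, so germline and follicle cells of these ovaries both lack the enzyme.

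piRNAs are small RNAs that guide PIWI proteins to transposon transcripts. In the germline nuage Aub mostly carries piRNAs antisense to transposons, and its cleavage of sense transcripts yields sense piRNAs that load onto Ago3, whose own cleavage of antisense precursors yields new antisense piRNAs for Aub, an exchange called ping-pong. PRMT5 dimethylates arginines near the N-terminus of Aub, which Tudor proteins then bind, and the strand carried by Ago3 relative to Aub is one readout of this exchange.

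Every condition had 1 library, so the differences below have no replicate check and no p-value was computed. csulRM50 and w1118 are also different strains. Loss of csul and other differences between the strains, such as their transposon content, cannot be told apart in any comparison of the genotypes below. Reads on transposons numbered 8543745 in Ago3 csulRM50, 9052689 in Aub csulRM50, 9086040 in Ago3 w1118 and 8892024 in Aub w1118, within the range of 1338017 to 47217032 over the study. At these depths 3 counts, taken as the smallest detectable number, were at most 3.51e-05% of a library. Intervals given below are 95% intervals from Wilson limits and cover counting error only, because reads multiplied by PCR were not collapsed in these libraries and do not count molecules. The only pair of libraries from a single condition in the study, 2 Piwi libraries of aubRK that differ in adaptor, gives a rough view of the spread between libraries. They also differ in depth, with 47217032 and 1338017 read copies, and in read copies per distinct read, with 5.57 and 1. Their differences therefore mix unlike counts. Over the 121 transposons of the csulRM50 pair the absolute difference between Ago3 and Aub had a median of 14.4 points and reached 10 points for 75, or 62.0%. In these Piwi libraries, over the 118 transposons that reached 50 read copies in each, the sense share differed by a median of 2.44 points and by 10 points or more for 17, or 14.4%. With at least 500 read copies the numbers were 73 of 103 between Ago3 and Aub in csulRM50 and 7 of 97 between the Piwi libraries.

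As markers of the tissue, a list of 8 germline elements (HeT-A, TAHRE, TART-A, I-element, Burdock, copia, F-element and Doc) took 17.0% of the read copies of Ago3 csulRM50, 16.0% of Aub csulRM50, 18.3% of Ago3 w1118 and 17.0% of Aub w1118. For both proteins HeT-A, TAHRE, TART-A and F-element were lower in csulRM50, and I-element, Burdock, copia and Doc higher. Elements that the files mark germline_dominant took 55.1% of Ago3 csulRM50 and 53.7% of Aub csulRM50. They took 44.4% of Ago3 w1118 and 44.8% of Aub w1118. A list of 6 elements expressed in follicle cells (gypsy, ZAM, Idefix, gtwin, gypsy5 and Tabor) took 0.980% in Ago3 csulRM50 and 0.964% in Aub csulRM50, against 0.508% in Ago3 w1118 and 0.466% in Aub w1118. The higher share was that of gypsy alone, at 0.562% in Ago3 csulRM50 and 0.562% in Aub csulRM50, against 0.0894% in Ago3 w1118 and 0.0743% in Aub w1118. Without gypsy the list took 0.418% in Ago3 csulRM50 and 0.401% in Aub csulRM50, against 0.418% in Ago3 w1118 and 0.392% in Aub w1118, with ZAM, gtwin and gypsy5 lower in csulRM50 and Tabor higher. More cells of a type and more piRNA per cell cannot be told apart in these libraries.

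Over all transposons, 47.0% of Ago3 read copies and 31.5% of Aub read copies in csulRM50 were sense. Sense means the orientation of the consensus sequence, as labelled in the deposited counts. Whether every consensus runs in the direction of its transcript was not checked. The difference, Ago3 minus Aub, was 15.5 percentage points (15.45 to 15.54). In w1118 the shares were 41.9% for Ago3 and 21.6% for Aub, a difference of 20.3 points (20.25 to 20.33). Ago3 thus carried more sense piRNA than Aub in both genotypes, and the gap was smaller in csulRM50, with both shares higher there. The deposited files also give entries, in which identical reads are counted once. By entries the csulRM50 shares were 45.7% for Ago3 and 38.9% for Aub, and the gap shrank to 6.83 points, so its size depended strongly on how often each distinct read was copied.

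A few families supplied much of the pooled gap. In CPM, read copies scaled to a common library total, sense piRNAs of Rt1b, a non-LTR retrotransposon, stood at 32052 CPM in Ago3 csulRM50 and 12198 CPM in Aub csulRM50, and this excess alone was 12.8% of the pooled gap. It was followed by F-element at 8.23%, Doc at 8.12%, opus at 7.32%, HeT-A at 7.15% and TART-B at 7.12%. These 6 elements together made up 50.8% of the gap. They are non-LTR retrotransposons apart from opus, an LTR retrotransposon of the gypsy type. In 32 of the 126 transposons sense piRNAs were instead less abundant in Ago3 than in Aub, which took 8.70% of the gap away again. Rt1b and Doc were named after their values were seen.

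Transposon by transposon, the median sense share over the 121 was 47.2% in Ago3 csulRM50 and 27.1% in Aub csulRM50. Ago3 was more sense than Aub for 101 transposons and less sense for 20, and the counting interval of the difference lay above 0 for 89 and below 0 for 12. The median difference was 12.96 points, with a range of −26.2 in diver2 to 38.4 in jockey. A step of 10 points was used to count transposons, and 68 of 121 (56.2%) were at least 10 points more sense in Ago3, while 7 (5.79%) were at least 10 points more sense in Aub. In w1118 the corresponding numbers were 88 (72.7%) and 7 (5.79%), with a median difference of 22.1 points. By entries 33 transposons, all among the 68, passed the step in csulRM50, while 67 of the 68 stayed above 0. At a step of 20 points 43 passed.

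**Figure D1:**
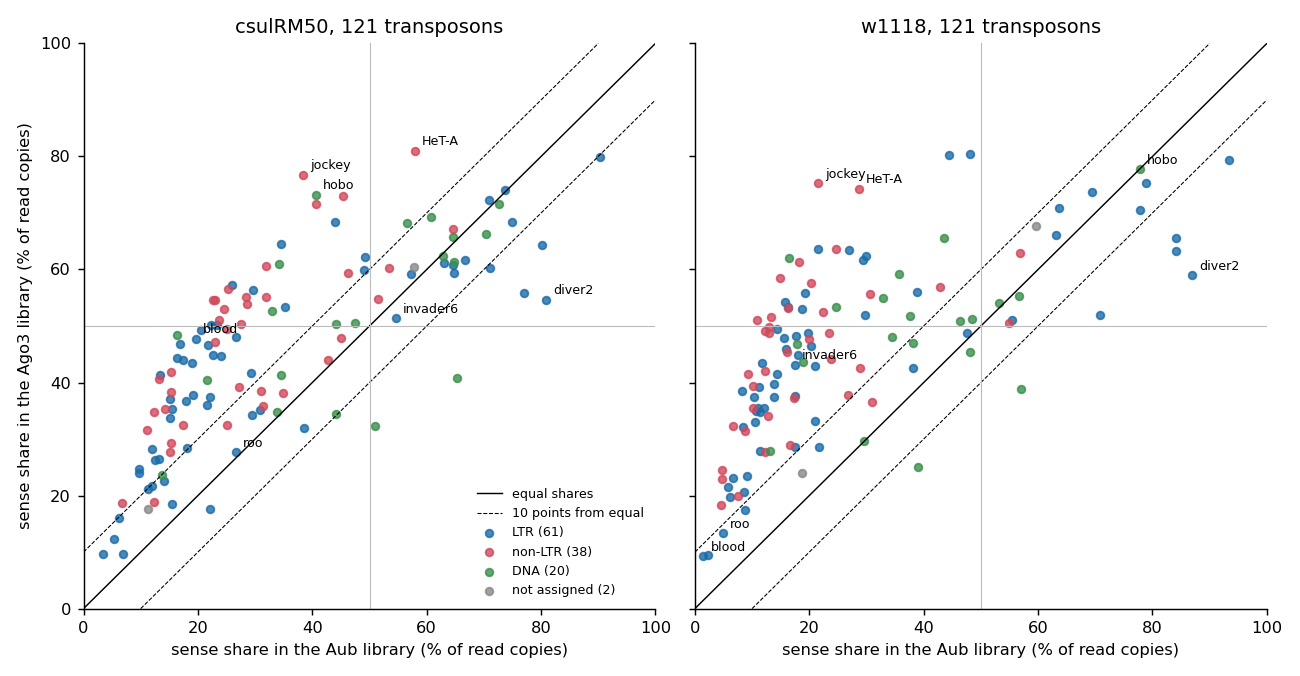
Sense share in the Ago3 library (vertical axis, % of read copies) against the sense share in the Aub library (horizontal axis, % of read copies) for 121 transposons in csulRM50 (left) and w1118 (right), 1 point per transposon coloured by type, with 1 library behind each axis. Points above the upper dashed line were at least 10 points more sense in Ago3 (68 in csulRM50 and 88 in w1118), and in csulRM50 more of the points sit close to the solid line of equal shares.

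The direction of the difference went with the strand that Aub itself carried. Among the 93 transposons whose Aub piRNAs were under 50% sense in csulRM50, 66 were at least 10 points more sense in Ago3. Among the 28 with Aub piRNAs over 50% sense, 2 were (HeT-A and pogo) and 7 were at least 10 points less sense in Ago3. Of the 20 transposons with a difference below 0, 17 had mostly sense Aub piRNAs. The Aub share enters both quantities, so this is a description and not an independent relation. Across the 121 transposons the sense shares of Ago3 and Aub were correlated with Spearman 0.799 and Pearson 0.755 in csulRM50, against 0.730 and 0.668 in w1118. Transposons within a library share its depth and preparation and are not replicates.

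Non-LTR retrotransposons, which move through an RNA copy made at the target site and have no terminal repeats, shared a direction. None of the 38 non-LTR members was less sense in Ago3 than in Aub in csulRM50, their differences ran from 1.15 to 38.4 points with a median of 22.6, and 28 of them (73.7%) passed 10 points. The counting interval held 0 for Rt1c, Doc4-element, G3, R1-2 and G7. By entries Rt1c stood at −1.18 points, G7 at −1.18 and G3 at −0.081 in csulRM50. The largest difference by read copies was that of jockey (FBgn0001283), with 76.8% sense of 142886 read copies in Ago3 csulRM50 and 38.4% of 79388 in Aub csulRM50, a difference of 38.4 points (37.96 to 38.77). In w1118 jockey was 75.2% sense in Ago3 and 21.5% in Aub. Its Ago3 share was therefore nearly the same in both genotypes and its Aub share was 16.9 points higher in csulRM50.

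The I-element (FBgn0001249), the retrotransposon of the I-R system of hybrid dysgenesis, was 54.6% sense in Ago3 csulRM50 and 23.01% in Aub csulRM50, against 61.2% in Ago3 w1118 and 18.1% in Aub w1118. R2-element (FBgn0003909), which inserts into ribosomal RNA genes, was 56.6% sense in Ago3 csulRM50 and 25.3% in Aub csulRM50, with 5114 and 4681 read copies. In w1118 it was 49.9% in Ago3 and 12.9% in Aub. Each of these elements thus had mostly sense piRNAs in Ago3 and mostly antisense piRNAs in Aub in the mutant. F-element (FBgn0000652), with 523810 read copies in Ago3 csulRM50 and 565452 in Aub csulRM50, remained mostly antisense in both, at 35.4% sense in Ago3 and 14.3% in Aub. Its difference was 21.1 points in csulRM50 and 18.2 in w1118. G2 (FBgn0063507) likewise had a larger gap in the mutant by read copies, with 41.8% sense in Ago3 csulRM50 and 15.4% in Aub csulRM50, against 24.6% in Ago3 w1118 and 4.79% in Aub w1118. By entries the order turned for both, with gaps of 10.5 points in csulRM50 and 13.8 in w1118 for F-element and 9.38 in csulRM50 and 12.5 in w1118 for G2. It also turned by the log2 odds ratio, the odds of sense over antisense in Ago3 relative to Aub. This was 1.71 in csulRM50 and 2.57 in w1118 for F-element, and 1.99 in csulRM50 and 2.70 in w1118 for G2.

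At the other end of the non-LTR elements, R1A1-element (FBgn0003908), another element of the ribosomal RNA genes, was 67.1% sense of 543790 read copies in Ago3 csulRM50 and 64.6% of 577376 in Aub csulRM50. Both proteins carried mostly its sense strand, and the gap of 2.51 points (2.33 to 2.68) was well below 10 although counting error was small. In w1118 it was 62.9% in Ago3 and 56.9% in Aub. Rt1c (FBgn0063467) was 44.0% sense in Ago3 csulRM50 and 42.8% in Aub csulRM50, and the interval of this difference, −1.67 to 3.97, held 0. In w1118 Rt1c was 42.6% in Ago3 and 28.8% in Aub.

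**Figure D2:**
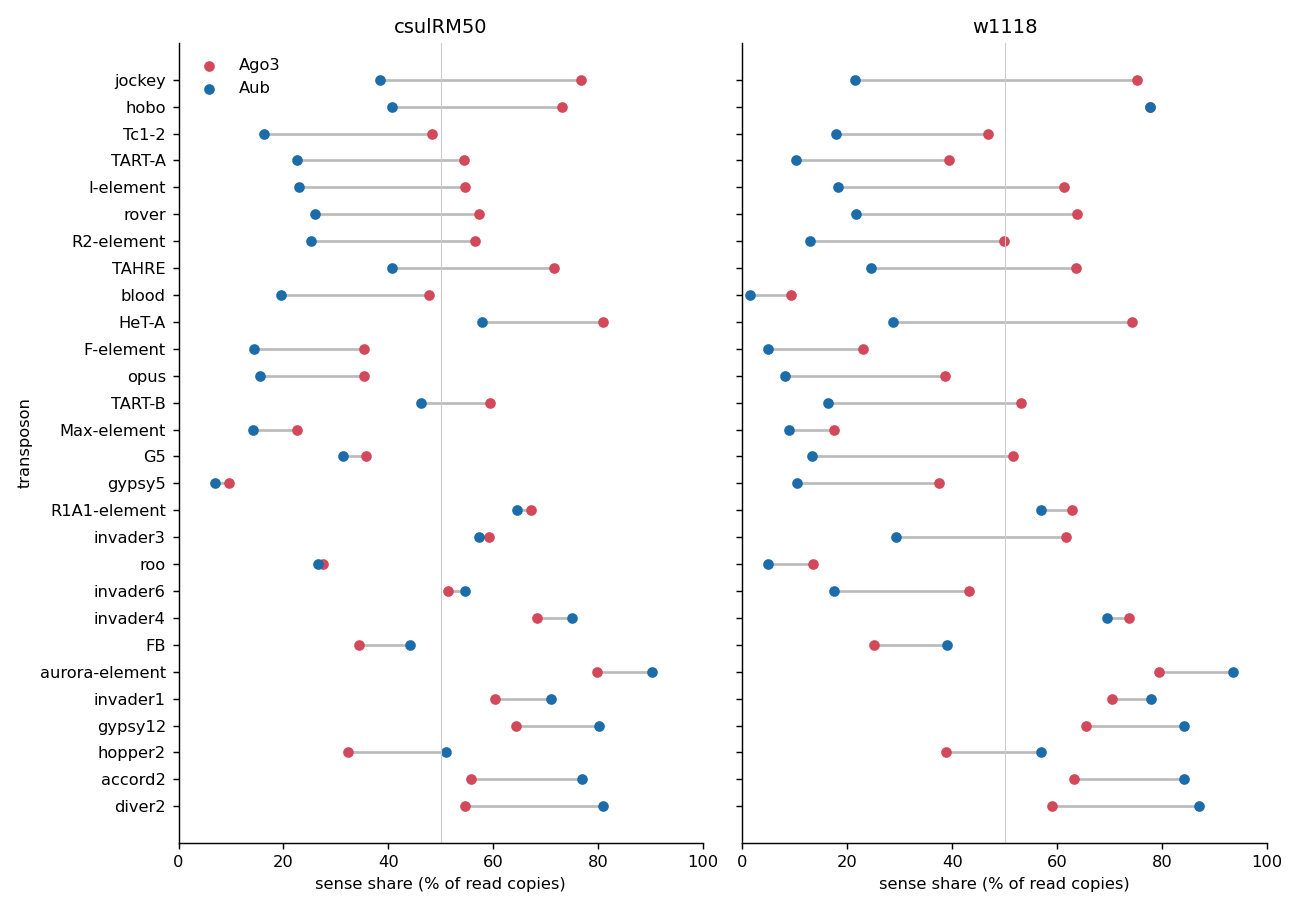
Sense share (horizontal axis, % of read copies) of 28 transposons in the Ago3 (red) and Aub (blue) libraries of csulRM50 (left) and w1118 (right), with 1 library per point and the transposons ordered by the difference in csulRM50. The red point lies right of the blue one from jockey down to roo in csulRM50 and left of it from invader6 to diver2, while in w1118 invader6 and invader4 lie the other way round.

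HeT-A, TAHRE and TART, the non-LTR retrotransposons that maintain Drosophila telomeres, all stayed more than 10 points more sense in Ago3, but with gaps that were smaller in csulRM50 than in w1118 for 4 of the 5 consensus sequences, and by entries for all 5. HeT-A (FBgn0004141) was 81.0% sense of 207532 read copies in Ago3 csulRM50 and 58.0% of 134283 in Aub csulRM50, against 74.3% in Ago3 w1118 and 28.6% in Aub w1118. The sense strand thus became the majority in Aub as well, and the gap was 23.03 points in csulRM50 and 45.7 in w1118. TAHRE (FBgn0069343) was 71.6% sense in Ago3 csulRM50 and 40.7% in Aub csulRM50, against 63.6% in Ago3 w1118 and 24.6% in Aub w1118.

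The 3 TART sequences, which carry the same FlyBase identifier (FBgn0004904) and may share reads, differed from each other. TART-A was 54.5% sense in Ago3 csulRM50 and 22.6% in Aub csulRM50, a gap of 31.9 points that was 29.3 in w1118, while by entries it was 11.0 points in csulRM50 and 14.4 in w1118. The log2 odds ratio of TART-A was 2.04 in csulRM50 and 2.53 in w1118. For TART-B the shares were 59.3% in Ago3 csulRM50 and 46.2% in Aub csulRM50, against 53.2% in Ago3 w1118 and 16.2% in Aub w1118, so the gap narrowed through the Aub library. TART-C went the other way, with 29.3% in Ago3 csulRM50 and 15.3% in Aub csulRM50, against 57.5% in Ago3 w1118 and 20.4% in Aub w1118, so that its gap narrowed through the Ago3 library. Read numbers in Ago3 also differed by genotype. TART-B had 501189 read copies in csulRM50 and 76184 in w1118, TART-C 21295 and 158989, and TART-A 37391 and 112037. Whether the shares of the genotypes rest on the same reads was not tested. Over the 5 telomeric sequences, with each TART counted separately, the median change of the gap was −22.7 points, compared with −6.40 over all 121.

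LTR retrotransposons, which are flanked by long terminal repeats and include the gypsy, copia and roo types, spread over the whole range. Of the 61 LTR members 34 (55.7%) were at least 10 points more sense in Ago3 csulRM50 than in Aub csulRM50 and 5 at least 10 points less, with a median of 12.96 points. The largest gap was in rover (FBgn0061485), 57.3% sense in Ago3 csulRM50 and 26.0% in Aub csulRM50, against 63.7% in Ago3 w1118 and 21.6% in Aub w1118. The abundant opus (FBgn0003007), with 481260 read copies in Ago3 csulRM50 and 502822 in Aub csulRM50, was 35.4% sense in Ago3 and 15.4% in Aub, against 38.6% in Ago3 w1118 and 8.19% in Aub w1118. In accord (FBgn0063447) the gap was 29.9 points in csulRM50 and 24.6 in w1118, while the log2 odds ratio was 2.11 in csulRM50 and 2.16 in w1118.

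Of the 3 LTR elements among the 6 most abundant transposons, opus had this large gap, while those of Max-element and roo were under 10 points in both genotypes. Max-element (FBgn0063919) had 564757 read copies in Ago3 csulRM50, of which 22.6% were sense, and 690456 in Aub csulRM50, of which 14.1% were sense. Its gap of 8.47 points was close to the 8.59 points of w1118. roo (FBgn0000155), which has many genomic copies, was 27.6% sense of 407012 read copies in Ago3 csulRM50 and 26.6% of 466148 in Aub csulRM50, a gap of 1.00 point (0.813 to 1.19). In w1118 roo was 13.4% sense in Ago3 and 4.92% in Aub, so both libraries were more sense in the mutant and Aub by more. By entries the gap of roo in csulRM50 was −0.44 points.

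DNA transposons, which move by excision and reinsertion, showed the smallest gaps of the 3 types, with a median of 4.63 points over 20 members, 6 of them (30.0%) at least 10 points more sense in Ago3 csulRM50 than in Aub csulRM50 and 2 at least 10 points less. Many of the 20 were rare. HB, S2, Tc1, Tc3, mariner2, transib1, transib3 and transib4 had under 500 read copies in Ago3 csulRM50, and none of them was 10 points more sense in Ago3. The part of depth in the low median of this type was not tested. hobo (FBgn0001210), a transposon of the hAT family known from hybrid dysgenesis, was 73.2% sense of 17542 read copies in Ago3 csulRM50 and 40.6% of 12176 in Aub csulRM50. In w1118 it was 77.7% sense in Ago3 and 77.7% in Aub, so that a gap of 32.6 points (31.49 to 33.67) in csulRM50 stood against none in w1118. It was the Aub share that differed, by −37.1 points. By entries the gap of hobo was 15.1 points in csulRM50 and 0.22 in w1118. Tc1-2 (FBgn0069340), of the Tc1 and mariner superfamily, had the same arrangement in both genotypes, with 48.4% in Ago3 csulRM50 and 16.4% in Aub csulRM50, against 46.7% in Ago3 w1118 and 17.9% in Aub w1118. In S-element (FBgn0004905) the gap was 19.7 points in csulRM50 and 14.2 in w1118, but by entries 7.15 in csulRM50 and 8.33 in w1118. The log2 odds ratio of S-element was higher in csulRM50, at 1.18 against 0.84 in w1118.

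**Figure D3:**
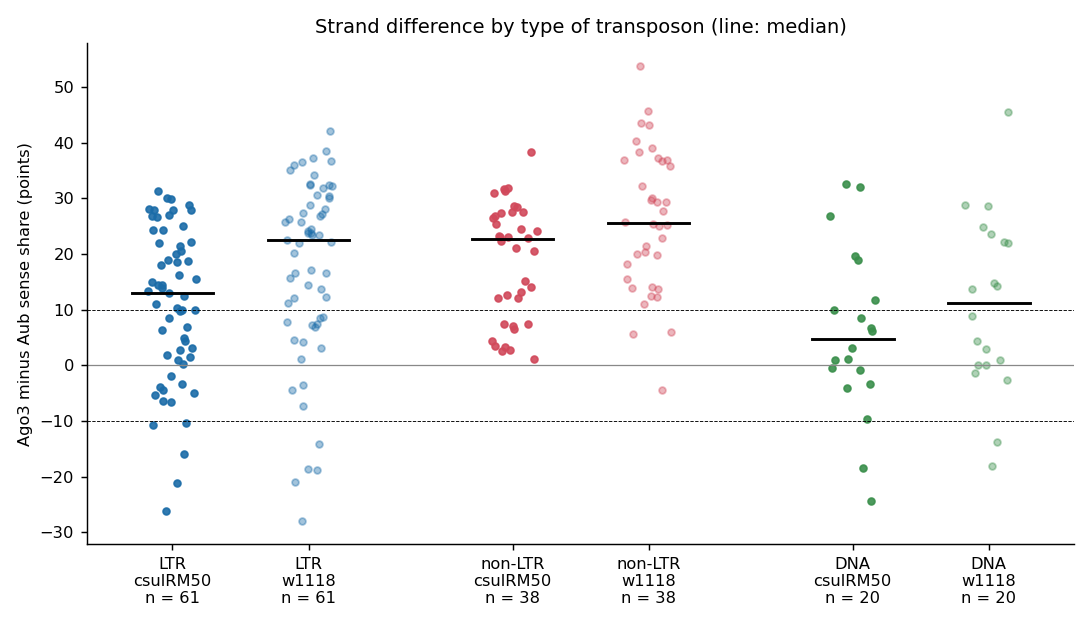
Ago3 minus Aub sense share (vertical axis, percentage points) of each transposon by type and genotype, with csulRM50 in full colour and w1118 in pale colour, 1 point per transposon and the median as a black line. In csulRM50 the medians were 12.96 points for 61 LTR, 22.6 for 38 non-LTR and 4.63 for 20 DNA elements, many of the DNA elements being rare. No non-LTR element was below 0, though some of their counting intervals held 0.

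In 11 transposons Aub was more sense than Ago3 in both genotypes, with both counting intervals below 0 for 8 of them. The 5 that passed −10 points in both genotypes were diver2, accord2, gypsy12 and aurora-element, all LTR elements, and the DNA transposon hopper2. diver2 (FBgn0063439) was 54.6% sense of 52384 read copies in Ago3 csulRM50 and 80.9% of 51772 in Aub csulRM50, a difference of −26.2 points (−26.79 to −25.70), against 58.9% in Ago3 w1118 and 87.0% in Aub w1118. accord2 (FBgn0063782) was 55.8% in Ago3 csulRM50 and 76.9% in Aub csulRM50, with a difference of −21.1 points there and −21.0 in w1118. For hopper2 (FBgn0067381) the shares were 32.4% in Ago3 csulRM50 and 50.9% in Aub csulRM50, and the differences −18.6 points in csulRM50 and −18.2 in w1118. For these 5 elements the difference changed by less than 4 points between genotypes, and all 5 were also below 0 by entries in csulRM50. The direction of their consensus sequences relative to the transcript was not checked.

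gypsy12 (FBgn0067385) was 64.3% sense in Ago3 csulRM50 and 80.2% in Aub csulRM50, and aurora-element (FBgn0010103) 79.8% in Ago3 csulRM50 and 90.3% in Aub csulRM50, the highest Aub sense share of any member. invader1 (FBgn0063430) passed −10 points in csulRM50 alone, with 60.3% in Ago3 csulRM50 and 71.1% in Aub csulRM50, against 70.5% in Ago3 w1118 and 77.9% in Aub w1118. The foldback element FB (FBgn0000638) stood just short of that step, at 34.4% of 602 read copies in Ago3 csulRM50 and 44.1% of 976 in Aub csulRM50, with a wide interval of −14.5 to −4.71 points. Circe, an LTR element, had small differences of −1.93 points in csulRM50 and −4.44 in w1118. mariner2, also past −10 points in csulRM50 alone and named after its values were seen, rested on 71 read copies in Ago3 csulRM50 and 75 in Aub csulRM50.

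The strictest form of the partition, with sense piRNAs as the majority in Ago3 and antisense piRNAs as the majority in Aub, was met by 28 transposons in csulRM50 (23.1%) and 32 in w1118 (26.4%). In 20 transposons it was met in both genotypes, among them jockey, I-element, rover, TAHRE and TART-B. In 8 transposons it was met in csulRM50 only, 6 of them non-LTR elements such as R2-element and TART-A, and in 12 in w1118 only. Of these 12, Ago3 was under 50% sense in csulRM50 for 5, such as TART-C, G5 and Osvaldo, and Aub was over 50% sense for 7, such as HeT-A and invader3. The opposite arrangement, with an antisense majority in Ago3 and a sense majority in Aub, was found for 2 transposons in csulRM50 and 1 in w1118. By entries 17 transposons met the form with opposite majorities in csulRM50.

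An element was counted as keeping the asymmetry when Ago3 was at least 10 points more sense than Aub in csulRM50 and in w1118, and 66 of 121 transposons (54.5%) did so. They took 55.0% of the read copies in the csulRM50 libraries, on average over both. Their median gap was 22.9 points in csulRM50 and 28.7 in w1118, and the median share of the w1118 gap retained in csulRM50 was 79.1%. The 66 were picked on their csulRM50 gap, which raises this share. Over all 88 transposons past the step in w1118 the median share retained was 71.2%. Within the 66, 26 were within 5 points of their w1118 gap, 12 had a larger gap in csulRM50 and 22 a gap smaller by at least 10 points. The Ago3 library of csulRM50 was more sense than that of w1118 for 39 of the 66, and the Aub library for 53. Of the 88 transposons past the step in w1118, 66 also passed it in csulRM50. Among them were all 13 germline-dominant elements, as classed in the files, that passed it in w1118. By entries, 29 of 119 transposons kept the asymmetry by the same step, and 65 of the 66 were above 0 in both genotypes.

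**Figure D4:**
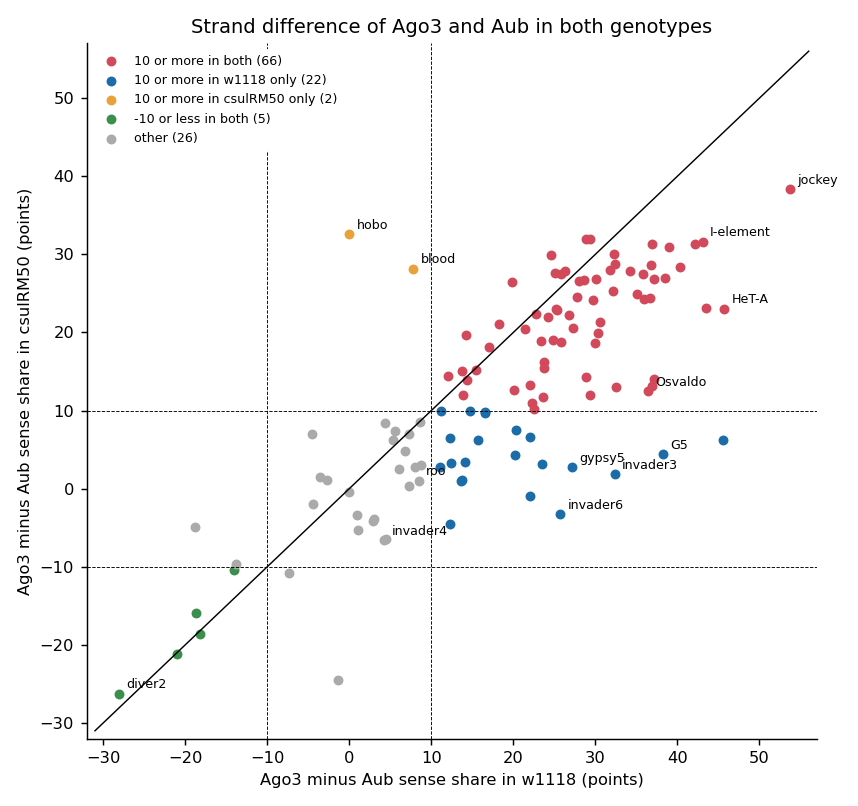
Ago3 minus Aub sense share of 121 transposons in csulRM50 (vertical axis, percentage points) against the same in w1118 (horizontal axis, percentage points), coloured by whether 10 points were passed in each genotype, with the solid line marking equal gaps. Most points lie below the line (95 of 121), hobo and blood lie far above it, and the 5 elements at −10 points or less in both genotypes lie along it.

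Over all 121 transposons the signed difference, Ago3 minus Aub, was lower in csulRM50 than in w1118 for 95 and higher for 26, and its median change was −6.40 points. Regardless of sign, the strands were closer in csulRM50 for 92. Of the 26, 17 were above 0 in both genotypes and 6 below 0 in both, where a higher signed difference is a smaller separation, as in frogger with −4.96 points in csulRM50 and −18.9 in w1118. By entries 14 of the 26 were higher in csulRM50. The signed difference was lower by at least 10 points for 39 (32.2%) and higher by at least 10 points for 4 (3.31%), which were hobo, blood and, on under 500 read copies, frogger and G7. The median change was 0.90 points for the Ago3 share and 5.21 points for the Aub share, and Ago3 was more sense in csulRM50 for 64 transposons and Aub for 91. The gaps of both genotypes were correlated with Spearman 0.733 and Pearson 0.778 across the 121, and had the same sign in 109.

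blood (FBgn0000199), an LTR element of the mdg1 group, was the other element whose gap was much larger in points in the mutant. It was 47.8% sense of 71945 read copies in Ago3 csulRM50 and 19.6% of 75369 in Aub csulRM50, against 9.29% in Ago3 w1118 and 1.47% in Aub w1118. Both shares were thus higher in csulRM50, by 38.5 points for Ago3 and 18.1 for Aub, and the gap was 28.2 points in csulRM50 and 7.81 in w1118. By entries the gap of blood was 11.4 points in csulRM50 and 9.02 in w1118, so most of its enlargement lay in the number of copies per distinct read. On relative scales, where the low w1118 shares weigh more, the order turned. The log2 odds ratio of blood was 1.91 in csulRM50 and 2.78 in w1118. Its log2 ratio of sense CPM, Ago3 over Aub, was 1.30 in csulRM50 and 2.27 in w1118.

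The asymmetry of w1118 was not kept by 22 transposons, which took 4.45% of the csulRM50 read copies, and 8 of them had under 500 read copies in at least 1 of the libraries. Their median gap was 3.86 points in csulRM50 and 16.5 in w1118. The interval of the csulRM50 gap held 0 for 10 of the 22, and 4 were between 8 and 10 points (Quasimodo, transib2, Stalker4 and Stalker3T), so that for these the loss rests on the step. For Stalker it rests on the scale in points, because both shares were low. Stalker was 9.60% sense in Ago3 csulRM50 and 3.36% in Aub csulRM50, a gap of 6.24 points. Its log2 odds ratio was 1.61 in csulRM50 and 2.14 in w1118. Ago3 was less sense in csulRM50 than in w1118 for 17 of the 22, and for 12 it was less sense while Aub was more sense. The median change in the 22 was −5.74 points in Ago3 and 5.08 in Aub. In the 66 that kept the asymmetry it was 1.59 points in Ago3 and 5.48 in Aub. Both groups were sorted on these same shares, so the directions are partly built in and serve as a description only.

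invader3 (FBgn0063428), an LTR element, had the clearest loss at high counts. It was 59.1% sense of 43760 read copies in Ago3 csulRM50 and 57.3% of 45333 in Aub csulRM50, against 61.7% in Ago3 w1118 and 29.4% in Aub w1118. The gap of 1.82 points in csulRM50 stood against 32.3 in w1118, and nearly the whole change lay in Aub, which was 27.9 points more sense in csulRM50. invader6, another LTR element of this series of names, was 51.3% sense in Ago3 csulRM50 and 54.6% in Aub csulRM50, against 43.2% in Ago3 w1118 and 17.5% in Aub w1118. It shares the FlyBase identifier of gypsy12 and may share reads with it. The non-LTR element G5 (FBgn0063504) was 35.8% of 1515 read copies in Ago3 csulRM50 and 31.4% of 1788 in Aub csulRM50. In w1118 it was 51.5% of 17163 in Ago3 and 13.3% of 14172 in Aub.

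gypsy5 (FBgn0063432), an element of the follicle-cell list, lost its gap through Ago3 instead. It was 9.64% sense of 1089 read copies in Ago3 csulRM50 and 6.91% of 1028 in Aub csulRM50, against 37.5% in Ago3 w1118 and 10.4% in Aub w1118. Of the 6 soma-dominant elements of the files 4 kept 10 points, and their median change between genotypes was −14.5 points in Ago3 and 0.04 points in Aub. In Osvaldo (FBgn0063755), which kept the step, the gap was 12.5 points in csulRM50 and 36.5 in w1118, again through Ago3, which was 41.7% sense in csulRM50 and 63.4% in w1118. Ago3 held 4121 read copies of it in csulRM50 and 29244 in w1118. By entries the csulRM50 gap of Osvaldo was −0.076 points.

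In the files 19 transposons are marked germline_dominant, 10 intermediate and 6 soma_dominant, and the others carry no class. The median gap in csulRM50 was 19.9 points for the germline-dominant elements, 23.1 for the intermediate and 13.8 for the soma-dominant ones, and 13, 8 and 4 of them passed 10 points. No intermediate or soma-dominant element was less sense in Ago3 than in Aub in csulRM50, and 2 germline-dominant ones were, 1731 and invader4. gypsy, an LTR element of the soma-dominant class that encodes an envelope protein, was 44.9% sense of 48037 read copies in Ago3 csulRM50 and 22.7% of 50897 in Aub csulRM50. In w1118 it was 44.8% of 8123 in Ago3 and 17.98% of 6609 in Aub, so its strands were nearly the same in both genotypes at very different read numbers. ZAM, of the same class, was 18.6% of 705 read copies in Ago3 csulRM50 and 15.4% of 674 in Aub csulRM50, against 34.8% in Ago3 w1118 and 11.4% in Aub w1118. Idefix, of the intermediate class, kept nearly its whole gap, with 41.3% in Ago3 csulRM50 and 13.4% in Aub csulRM50, against 43.5% in Ago3 w1118 and 11.7% in Aub w1118.

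Rt1b, a non-LTR element of the germline-dominant class, had the most sense read copies in Ago3 csulRM50 after R1A1-element and TART-B. It was 60.6% sense of 452184 read copies in Ago3 csulRM50 and 31.9% of 346277 in Aub csulRM50, against 49.0% in Ago3 w1118 and 12.3% in Aub w1118. Doc was 40.6% sense of 402468 read copies in Ago3 csulRM50 and 13.2% of 449102 in Aub csulRM50, a gap of 27.4 points that was 25.8 in w1118, and by entries 12.8 in csulRM50 and 16.3 in w1118. The log2 odds ratio of Doc was 2.17 in csulRM50 and 2.77 in w1118. X-element was 47.2% in Ago3 csulRM50 and 23.1% in Aub csulRM50, against 42.0% in Ago3 w1118 and 12.2% in Aub w1118. In Rt1b and X-element both libraries were thus more sense in csulRM50, Aub by more than Ago3, while in Doc both moved by like amounts, 8.26 points in Ago3 and 6.65 in Aub. Rt1a, a relative of Rt1b without a class, was 55.1% in Ago3 csulRM50 and 31.9% in Aub csulRM50, against 58.5% in Ago3 w1118 and 15.0% in Aub w1118.

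Depth went with the size of the gap. Among the 15 transposons with up to 1000 read copies in both csulRM50 libraries together the median gap was −0.92 points and 1 passed 10 points. The median was 6.64 points for the 21 with up to 10000, 20.1 for the 46 with up to 100000 and 18.6 for the 39 with more. Of the 10 most abundant transposons 5 passed 10 points. At the minimum itself, G7 had 63 read copies in Ago3 csulRM50 and 75 in Aub csulRM50, invader5 69 and 122, and transib4 70 and 82. Just below it, Bari2 had 19 in Ago3 csulRM50 and 21 in Aub csulRM50. The part of depth in the smaller gaps of rare elements was not tested.

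In abundance, with both strands summed, Ago3 and Aub held nearly the same transposons in csulRM50. The log2 ratio of Ago3 over Aub, on (CPM + 1), had a median of −0.08 over the 121 and ran from −0.82 in S2 to 0.93 in jockey, and no transposon (0%) differed by more than 2-fold. The Spearman correlation of the abundances was 0.993. jockey stood at 16724 CPM in Ago3 csulRM50 and 8770 CPM in Aub csulRM50, and HeT-A at 24291 and 14834 CPM, a log2 ratio of 0.71. Next came hobo at 0.61 and TAHRE at 0.61. The lowest ratios among transposons with at least 500 read copies were −0.65 in Rt1c, −0.61 in FB, −0.51 in transib2 and −0.48 in Stalker. The 6 most abundant elements by mean CPM over both libraries were Max-element, R1A1-element, F-element, opus, TART-B and roo.

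Split by strand, the libraries differed. For sense piRNAs the median log2 ratio of Ago3 over Aub in csulRM50 was 0.59, 91 of 121 were above 0, and 48 (39.7%) were over 2-fold higher in Ago3. For antisense piRNAs the median was −0.43, 109 were below 0, and 1 transposon (0.826%) was over 2-fold different. That transposon was diver2, with 2782 antisense CPM in Ago3 csulRM50 and 1094 in Aub csulRM50. Because each library is scaled to the same total, the pooled sense excess of Ago3 equals its pooled antisense deficit, and the ratios are larger for sense piRNAs where these are the smaller part in Aub. In w1118 the medians were 1.26 for sense and −0.49 for antisense and 73 transposons were over 2-fold higher in Ago3 for sense piRNAs. jockey led in sense piRNAs, at 12841 CPM in Ago3 csulRM50 and 3369 CPM in Aub csulRM50, a log2 ratio of 1.93, against 2.93 in w1118. For roo the sense ratio was −0.06 in csulRM50 and 1.09 in w1118, and for FB, the lowest, −0.94 in csulRM50.

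**Figure D5:**
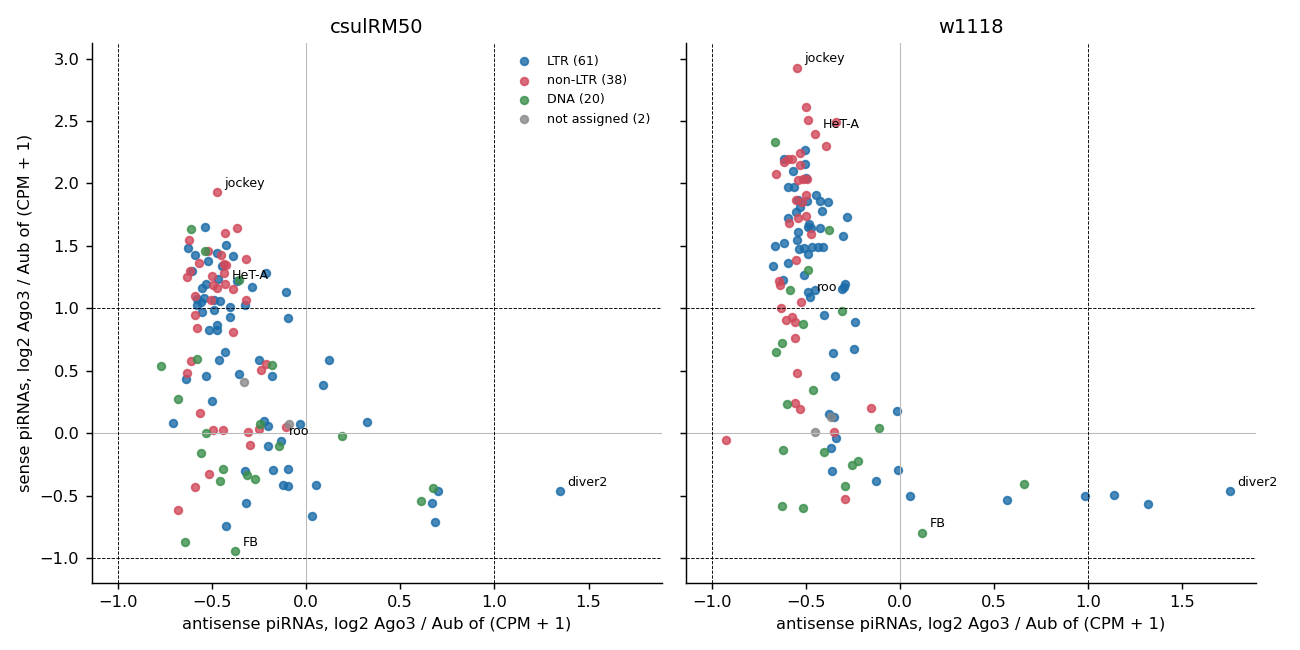
Log2 ratio of Ago3 over Aub abundance for sense piRNAs (vertical axis) against that for antisense piRNAs (horizontal axis), both on (CPM + 1), for 121 transposons in csulRM50 (left) and w1118 (right). Dashed lines mark 2-fold. In csulRM50 48 transposons lie above the upper line and diver2 alone lies right of the right-hand line.

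The number of read copies behind each distinct read differed by strand in the Aub libraries. In Ago3 csulRM50 there were 8.48 copies per entry for sense reads and 8.05 for antisense reads, while in Aub csulRM50 there were 5.86 for sense and 8.10 for antisense. In w1118 the values were 7.01 for sense and 7.65 for antisense in Ago3, and 4.21 for sense and 7.68 for antisense in Aub. By transposon, sense reads had more copies per entry than antisense reads for 70 of 121 in Ago3 csulRM50 and for 30 in Aub csulRM50. Sense piRNAs in Aub were thus made of relatively many distinct reads with few copies each, which is where read copies and entries part. Without molecular identifiers, abundant piRNAs and PCR copies cannot be told apart.

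The same pair of proteins was also sequenced in aubRK and aubWT ovaries, with other antibodies and another protocol, so that only the direction is set beside csulRM50 and no difference is drawn. In aubRK, whose only Aub is an HA-tagged germline transgene with the methylated arginines changed to lysines, the pooled Ago3 minus Aub difference was −5.41 points and the median over 123 transposons −3.13, with 11 transposons at least 10 points more sense in Ago3 and 38 at least 10 points less. In aubWT, with the wild-type form of the transgene, the pooled difference was 26.3 points and the median 7.71. There 55 transposons were at least 10 points more sense in Ago3 and 18 at least 10 points less. The Ago3 library of aubWT held 1 read copy per entry and the Aub library 39.1, so the size of these differences mixes unlike counts. By entries the pooled sense shares were 56.2% in Ago3 aubWT and 34.2% in Aub aubWT, and 34.5% in Ago3 aubRK and 39.3% in Aub aubRK. In sign, the pooled and median differences of csulRM50, 15.5 and 12.96 points, were those of w1118 and aubWT, though single transposons went either way in every pair.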

How the data were processed

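The values used are whole-number counts that the authors deposited per transposon and orientation, without normalization. Per the labels and the methods of the study, the authors trimmed reads with cutadapt 2.3 and aligned them end to end to consensus transposons with STAR 2.4.2a, keeping best-scoring alignments, so a read that matches several consensus sequences can be counted on each. Read copies were the main measure, and entries, which by name and values count identical reads once, an alternative.

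Sense shares, differences and CPM (total on transposons as library size, pseudocount 1) were computed in Python (pandas 2.3.3, numpy 2.4.6), with Wilson and Newcombe 95% intervals. The minimum was 50 read copies in both libraries. TMM and DESeq2 size factors (edgeR 4.0.16, DESeq2 1.42.0, R 4.3.3) were alternatives. The script was tested on simulated data.

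Transposons were named by rule over those with at least 500 read copies: the 8 largest and 8 smallest differences, the 6 largest changes each way, the 6 most abundant, and the 4 highest and 4 lowest abundance ratios, with the telomeric elements and blood. Others were named after their values were seen. Element types were assigned by name from general knowledge, with INE-1 and Q-element in no type. The members and lists were chosen with earlier results of these data known. Gene positions are from BDGP6, while the labels give dm3 for the reads, and no coordinates were combined.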

Additional observations from a re-analysis of the deposited data

Results flagged for a closer look

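In 4 transposons with at least 500 read copies in all 4 libraries the gap between Ago3 and Aub had opposite signs in csulRM50 and w1118, with both counting intervals away from 0. With 1 library per condition the difference between genotypes was not tested. The change, csulRM50 minus w1118, was −29.0 points for invader6 (−3.29 in csulRM50 and 25.7 in w1118), −10.8 points for invader4 (−6.58 in csulRM50 and 4.25 in w1118), −6.88 points for 1731 (−3.84 in csulRM50 and 3.04 in w1118) and 4.98 points for invader2 (1.44 in csulRM50 and −3.54 in w1118). By entries invader2 stood at −0.31 points in csulRM50 and −0.20 in w1118, so its change of sign was not seen there. invader6 shares its FlyBase identifier with gypsy12.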

How the results depend on the processing

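Entries in place of read copies changed the sizes most and turned the sign of no summary. The pooled gap in csulRM50 was then 6.83 points, the median gap 7.56 points and the median change against w1118 −3.87 points, with 33 transposons past 10 points, 17 with opposite majorities and 29 keeping the asymmetry. Of 40 named members, 39 kept their side of 0 or had a gap under 10 points, and Osvaldo turned to −0.076 points. The pooled gap was 16.2 points without roo and 17.5 over germline-dominant transposons. Their median gap was 19.9 points and their median change −7.44 points. With at least 500 counts the median gap was 15.4 points and the median change −5.59 points. At a step of 20 points 43 transposons passed and 39 kept the asymmetry. Other minimums, a step of 5 points and a log2 odds ratio of 1 left the numbers past the step, with opposite majorities and keeping the asymmetry within 1.5 times. The members themselves changed, however. By the log2 odds ratio 62 transposons kept the asymmetry, with Stalker, Stalker4 and Stalker3T among them. TART-B, Osvaldo and McClintock, kept by points, were under 1 in csulRM50. The number past the step below 0 was 11 at 5 points and 3 at 20 points, and the count not keeping the asymmetry was 14 with at least 500 counts and 46 by entries. Over 2-fold in abundance were 1 transposon (jockey) with TMM and 1 with DESeq2 size factors, 48 with sense counts alone and 1 with antisense counts alone. Leaving out the TART sequences, chosen after seeing the data, gave 15.5 points. No paired analysis was possible because each condition has 1 library. The depth and the single library per condition limit all values: intervals cover counting error, and the spread between ovaries is unknown.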

Other observations

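In some elements the sense share differed between genotypes by similar amounts in both libraries, which changes the gap between Ago3 and Aub little. hopper, a DNA transposon named after its values were seen, was 62.4% sense in Ago3 csulRM50 and 62.8% in Aub csulRM50, against 29.6% in Ago3 w1118 and 29.6% in Aub w1118, so that the shares were 32.8 points higher in csulRM50 for Ago3 and 33.2 for Aub, and the gap was −0.41 points. 1360, a DNA transposon of the P-element superfamily, likewise was 69.2% in Ago3 csulRM50 and 60.8% in Aub csulRM50, against 50.8% in Ago3 w1118 and 46.4% in Aub w1118. HMS-Beagle, an LTR element, went the other way, with 64.5% in Ago3 csulRM50 and 34.5% in Aub csulRM50, against 80.3% in Ago3 w1118 and 48.1% in Aub w1118, and its gap of 30.0 points was close to the 32.3 points of w1118. Over the 121 transposons, 11 had Ago3 piRNAs that were mostly sense in csulRM50 and mostly antisense in w1118, and 6 the reverse. For Aub the numbers were 11 and 1, which was hobo.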
